A study of Apostichopus japonicus with 9 samples.

Results

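The small RNA libraries of the sea cucumber respiratory tree listed 475 miRNA entries, of which 289 were predicted from hairpins and 186 had been named after known animal miRNAs (Aja- names). The 45 entries described here are the predicted miRNAs selected on a deposited value above 0 in 2 or more of the 9 libraries. Of these, 42 have a PC- name, and the other 3, which the files tell apart by a number alone, are called predicted miRNA 1, predicted miRNA 2 and predicted miRNA 3 after that number. The remaining 244 predicted miRNAs were listed in 1 library each. Detection chose the 45 entries, so the number of libraries and groups in which they were listed is a description and was not tested.

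Sea cucumbers (*Apostichopus japonicus*) were kept for 3 days in water with a dissolved oxygen (DO) of 2 mg/L (DO2 group, severe hypoxia), 4 mg/L (DO4 group, mild hypoxia) or 8 mg/L (DO8 group, the normoxic control), and oxygen was lowered with nitrogen. Each group had 3 libraries (n = 3), and RNA of 3 animals was pooled for each library, so the spread within a group is a spread between pools. Known miRNAs of muscle, nerve and epithelium were listed in all groups. Of the marker entries, those of muscle were listed 4 to 5 of 5 per library, those of the nervous system 6 to 8 of 8 and those of epithelial, ciliary or secretory cells 4 of 4, and Aja-miR-133a-5p (DO2_1 and DO2_2), Aja-miR-153-1-p5 (all 3 DO4 libraries) and Aja-miR-9 (all but DO4_3 and DO8_1) were the ones at 0.

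In animals a miRNA is cut from a hairpin precursor, which is made by Drosha from the primary transcript and opened by Dicer into a short duplex. Either strand of the duplex, the 5p or the 3p arm, can be loaded into an Argonaute protein, and the bases from the second to the eighth, called the seed, pair with sites in messenger RNAs whose translation and stability are then lowered. A prediction of the kind used here starts from reads that match one side of a possible hairpin. Fragments of tRNA, rRNA and other abundant RNAs can also have this length and lie in a foldable stretch, and listing in several libraries is one of the properties by which predicted miRNAs are usually sorted. The files give no function for any of the 45 entries.

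The sequences of the entries on which the results turn are given as DNA, 5′ to 3′, with the seed (bases 2 to 8) in capitals. The first set holds the 3 numbered entries and PC-3p-13527_171, for which some group had no library at 0, and other entries that stood out by level or by the groups in which they were listed.
predicted miRNA 1: tGGCACGTgactttgttga
predicted miRNA 2: aAAGAAAGcctctaacagatcc
predicted miRNA 3: gATCAAAGgttgagggctgaaa
PC-3p-13527_171: tCAGTAAActccttgcaa
PC-3p-101903_14: cGGTTGTAtttcaagctcaa
PC-3p-42159_38: aTCATAGGaacttgtgaatgcatt
PC-5p-33945_52: tGAAGGCTtgtgatatctacattc

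The next set shows every seed that an entry shared with another of the 45 or with a known entry. PC-5p-194313_5 and PC-5p-68984_22 shared 1 seed, and PC-3p-46913_33 had the seed of Aja-miR-276-3p, a known entry.
PC-5p-194313_5: tGGGACTAtatttgctgtgaggg
PC-5p-68984_22: aGGGACTAtctggataacatgc
PC-3p-46913_33: aAGGAACTaggcaaataaaa
Aja-miR-276-3p: tAGGAACTtcataccgtgctct

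In the last set the capitals mark the stretch shared by each pair of overlapping entries, which is 15 bases in the first pair, 19 in the second and 20 in the third.
PC-3p-13994_163: aacGGAGTGTTAGCTCAG
PC-3p-22583_90: taaGGAGTGTTAGCTCAG
PC-3p-157649_7: AACACCCGGAGTGCATTAAtcat
PC-3p-92088_16: ttAACACCCGGAGTGCATTAA
PC-5p-30179_61: AAGACGAAGGATCAGGTTAA
PC-5p-45062_35: acAAGACGAAGGATCAGGTTAA

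The 45 entries therefore held 44 distinct seeds, and 1 of them had the seed of a known entry. Of the 45, 4.44% shared their seed with another of them, and 41.4% of the 186 known entries (77) shared theirs with another known entry. These sets are unlike, since the known list is larger and holds several forms of a family by name, such as Aja-miR-92a and Aja-miR-92b. The longest stretch in common with any known entry was between 6 and 10 bases. PC-5p-30179_61 is contained whole in PC-5p-45062_35, and PC-3p-157649_7 and PC-3p-92088_16 start at different bases of the same stretch, as does a predicted entry of 1 library, PC-3p-163779_7, which shared 18 to 19 bases with them. The entries of such a pair can come from 1 locus and are not independent of each other.

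PC-3p-13994_163 and PC-3p-22583_90 differ only in their first 3 bases, and both end in TAGCTCAG. These 8 letters, which also occur in the A box of many animal tRNA genes, were searched on both strands of all 475 entries and were found in 0.421% of them, namely in these 2 entries. The match is a description of the letters and does not give the origin of the reads.

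The 45 entries were between 18 and 24 nt long with a median of 22 nt. There were 4 entries of 18 nt, 3 of 19 nt, 8 of 20 nt, 7 of 21 nt, 9 of 22 nt, 9 of 23 nt and 5 of 24 nt, so that no single length dominated. Among the predicted miRNAs of 1 library the median was 21 nt, and 20 of them (8.20%) had 25 nt or more, a length none of the 45 reached. Lengths of 21 to 23 nt made up 55.6% of the 45 entries, 46.3% of the predicted miRNAs of 1 library and 67.2% of the known entries. These shares were set side by side and not tested, since entries are not replicates.

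**Figure D1:**
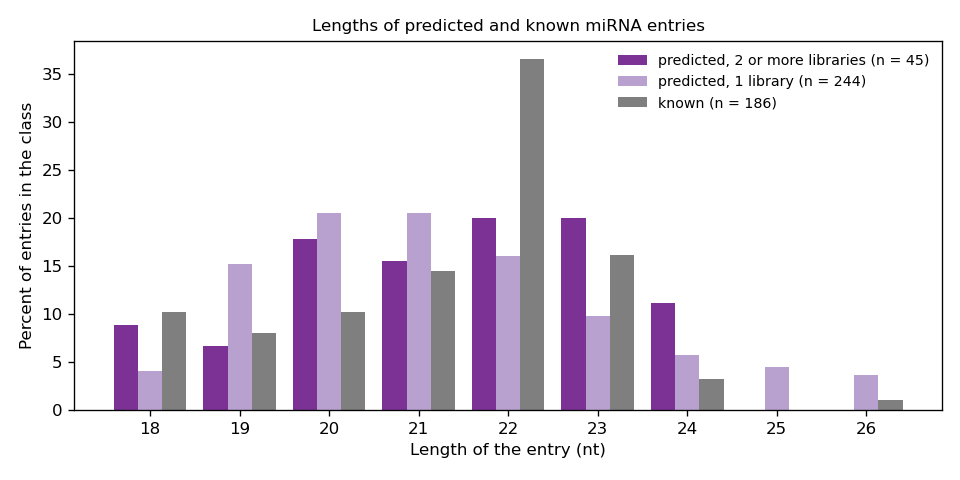
Length of the entry in nt (x axis) against the percent of entries in each class (y axis), with 1 bar for the 45 predicted miRNAs of 2 or more libraries, 1 for the 244 of 1 library and 1 for the 186 known entries. The known entries peak at 22 nt with 36.6%, while the 45 predicted miRNAs have 20.0% at 22 nt and 20.0% at 23 nt and none of 25 nt or more.

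The first base was T (U in the RNA) in 18 of the 45 entries (40.0%), A in 16, G in 8 and C in 3. A first U is common among animal miRNAs, and it was found in 59.1% of the known entries and 35.2% of the predicted miRNAs of 1 library. By their names 23 entries came from the 3p arm and 19 from the 5p arm, and the names of the 3 numbered entries give no arm. The predicted miRNAs of 1 library had 118 names of the 3p and 126 of the 5p arm. The median GC content was 43.5%, against 45% in the predicted miRNAs of 1 library and 47.4% in the known entries.

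The deposited values are a signal, namely reads of each entry scaled with 1 factor per library by the authors. The predicted miRNAs took values that were steps of a fixed size in each library, and this step gave the value of 1 read. One read was worth 6.18, 3.23 and 1.22 in DO2_1, DO2_2 and DO2_3, between 0.633 and 0.682 in the DO4 libraries and between 0.556 and 0.598 in the DO8 libraries. The miRNA reads worked out in this way were 335658 to 1740914 in the DO2 libraries, 4795819 to 6024869 in DO4 and 4681523 to 5720697 in DO8. They are sums over the listed entries, and the paper reports more miRNA reads for every library, with DO2 likewise lowest. By the worth of 1 read, the same value stood for far fewer reads in DO2 than elsewhere. An entry at 0 in DO2_1 was bounded only by the smallest listed value of 12.4, against 0.741 to 1.10 in the DO4 and DO8 libraries.

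The 45 entries held few reads. Their totals over the 9 libraries ran from 8 to 295 reads with a median of 24, and 1728 reads covered all of them together. There were 7 entries with under 10 reads, 21 with 10 to under 30, 14 with 30 to under 100 and 3 with 100 or more, which were PC-3p-13527_171 (295 reads), PC-3p-13994_163 (185 reads) and PC-5p-30179_61 (100 reads). The highest value an entry reached in any library was between 3.31 and 148, with a median of 17.0, beside a median of 19.7 for the known entries and 13.4 for the predicted miRNAs of 1 library. In 9 entries the number of reads was not whole in some library. A PC- name ends in a number, and of the 42 entries with such a name, 20 had exactly that number (within 0.02 of a read) in 1 of the libraries, and in 18 of these it was the library with the most reads.

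Entries just inside the rule, listed in exactly 2 libraries, were 34 of the 45. Their median was 17 reads with a range of 8 to 100. The predicted miRNAs just outside the rule, with 1 library, had a median of 9 reads and a range of 2 to 207, and 9 of the 244 had 30 reads or more. The 11 entries of 3 or more libraries had a median of 41 reads and a range of 17.5 to 295.

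Most of the detections were made in 2 libraries of the severe hypoxia group. DO2_3 listed 34 of the 45 entries, DO2_2 listed 27 and DO2_1 listed 6. The DO4 libraries listed 15, 10 and 11 entries (DO4_1, DO4_2 and DO4_3), and the DO8 libraries listed 3, 3 and 8. DO2_2 and DO2_3 lay above every other library, while DO2_1 lay below the DO4 libraries and DO8_3 and above DO8_1 and DO8_2. The number of known entries did not follow this order. It was 73, 79 and 99 for DO2, 85, 92 and 136 for DO4, and 84, 96 and 93 for DO8.

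Relative to the miRNA reads of the library, the 45 entries together had 203, 354 and 409 RPM in DO2_1, DO2_2 and DO2_3. The DO4 libraries had 43.5, 41.9 and 15.4 RPM and the DO8 libraries 10.1, 8.97 and 15.8 RPM. Every DO2 library was above every other library on this measure, while the ranges of DO4 and DO8 overlapped. The measure divides by the miRNA reads, which were fewest in DO2 although the paper reports similar numbers of clean reads in all groups. It is not a level per read sequenced. As numbers of reads, without division by the miRNA reads, DO2 overlapped with both other groups, and every DO4 library was above every DO8 library. The entries held 68, 222.5 and 711.5 reads for DO2, 262, 201 and 82 for DO4, and 58, 49 and 74 for DO8.

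**Figure D2:**
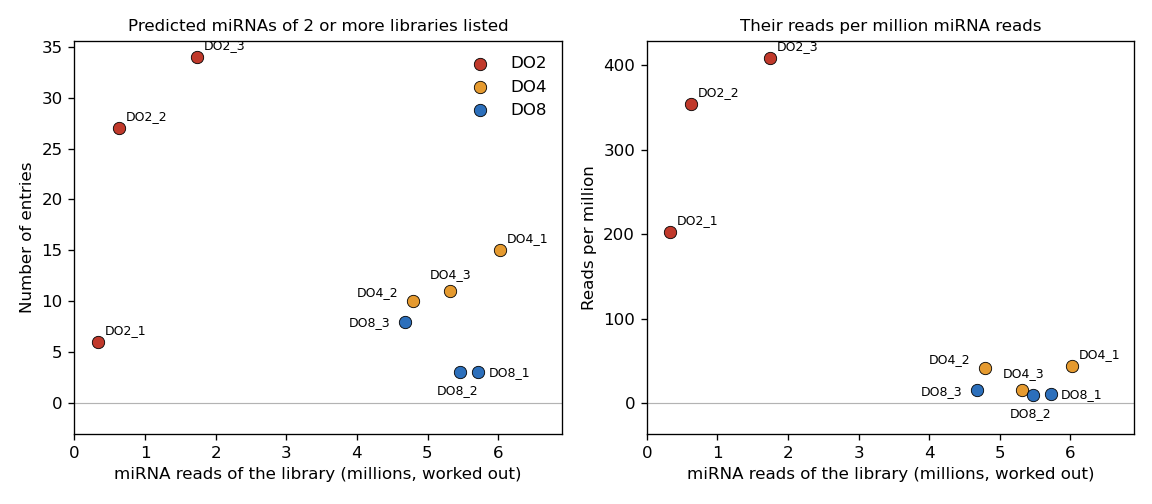
Number of the 45 predicted miRNAs listed (left) and their RPM, relative to miRNA reads (right), against the miRNA reads of each library, 1 point per library, coloured by group. The 3 DO2 libraries have the fewest miRNA reads, the number by which RPM divides, and DO2_2 and DO2_3 list 27 and 34 entries. DO2_1, DO2_2 and DO2_3 reach 203, 354 and 409 RPM against at most 43.5 elsewhere.

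The DO4 and DO8 libraries held more miRNA reads, so detection was also compared at equal miRNA reads. Depth here means miRNA reads and not all reads sequenced. The values alone do not tell a shallower library from one with a smaller share of miRNA. The paper reports similar numbers of clean reads in all libraries and a smaller share of miRNA among them in DO2. Equal miRNA reads are therefore not equal sequencing, and the reduction mostly discards reads of DO4 and DO8. When every library was reduced to the 335658 reads of DO2_1 by the exact rarefaction formula, the expected number of listed entries was 6 in DO2_1, 25.9 in DO2_2 and 31.4 in DO2_3. It was 6.64, 5.53 and 3.92 in the DO4 libraries and 1.98, 1.69 and 3.49 in the DO8 libraries. Equal miRNA reads left DO2_2 and DO2_3 well above the others. The 6 of DO2_1 lay within the range of DO4, but DO2_1, which was not reduced, listed no predicted miRNA under 4 reads. Its number and the numbers expected from 1 read elsewhere therefore have unlike floors. Where 4 reads were asked for instead of 1, a limit chosen after the data had been seen, the expected numbers fell to 6, 11.1 and 16.0 in DO2, at most 1.31 in DO4 and at most 0.158 in DO8. Above a common floor, the value of 12.4 that was the smallest one listed in DO2_1, there were 6, 24 and 26 entries in the DO2 libraries, 3, 3 and 0 in DO4 and 1 in each DO8 library. In DO2_1 that value belonged to a known entry, and no predicted miRNA was listed there below 24.7.

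The predicted miRNAs of 1 library were distributed in the same direction, with 208 of the 244 (85.2%) in a DO2 library, 35 (14.3%) in a DO4 library and 1 (0.410%) in a DO8 library. Of all predicted miRNAs listed in a library, the 45 entries made up 54.5%, 31.8% and 19.0% in DO2_1, DO2_2 and DO2_3, between 38.5% and 90.9% in DO4 and between 75% and 100% in DO8. A predicted miRNA listed in a DO8 library was therefore nearly always listed elsewhere as well, and one listed in DO2_3 mostly was not.

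Known entries of families that resemble rRNA or tRNA fragments in other animals had a higher sum in the DO2 libraries. Over 20 such entries (9 to 13 of which were listed in a library) the summed value was 71951.6, 36821.4 and 7672 in DO2_1, DO2_2 and DO2_3, and it ranged over 281 to 625 for DO4 and 279 to 550 for DO8. All 3 DO2 libraries were higher than the other 6, but the order within DO2 was the opposite of the order of the number of predicted miRNAs listed. Aja-miR-6236, Aja-miR-4171-5p, Aja-miR-2835-5p and Aja-miR-1973-5p were at 0 in every DO4 and DO8 library. The list did not move as a whole: of its 14 entries tested for DO2 against DO8 (limma on log2(value + 1), in the fit described with the comparisons), 9 were called higher, among them all tested entries of miR-6236 and miR-6240, 2 were called lower and 3 did not pass. Those called lower were Aja-miR-7977 (-2.84, limma adjusted p = 0.0221), which was at 0 in all DO2 libraries, and Aja-miR-2478b-3p (-2.79, limma adjusted p = 0.0396). Over all 90 entries of that fit, 23.3% were called higher and 7.78% lower. The entries at 0 in every DO4 and DO8 library entered the test through DO2 alone, and Aja-miR-7977 through DO8 alone. The list was also chosen with earlier results of these data known, so the sum and the number called follow from the choice in part and support nothing. The summed value of the muscle entries was 77416 to 129224 for DO2, 73264 to 95945 for DO4 and 54757 to 69823 for DO8, that of the nervous system entries 1916 to 3162, 1423 to 2203 and 1669 to 2127, and that of the epithelial entries 61514 to 77743, 65315 to 140466 and 97562 to 141335. Their part in the results on the 45 entries was not tested. Fewer cells of a type and less miRNA per cell cannot be told apart in pooled tissue.

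By group, 22 of the 45 entries (48.9%) were listed in DO2 only, 10 in DO2 and DO4, 4 in all 3 groups, 1 in DO2 and DO8, 4 in DO4 only and 4 in DO4 and DO8. There was no entry in DO8 only. A DO2 library listed 37 of the entries, a DO4 library 22 and a DO8 library 9. The 4 entries of all 3 groups were of the 3p arm and 18 to 20 nt long, 3 of them 18 nt, whereas the entries of DO2 only had 12 names of the 5p and 8 of the 3p arm and were 19 to 24 nt long with a median of 21 nt.

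**Figure D3:**
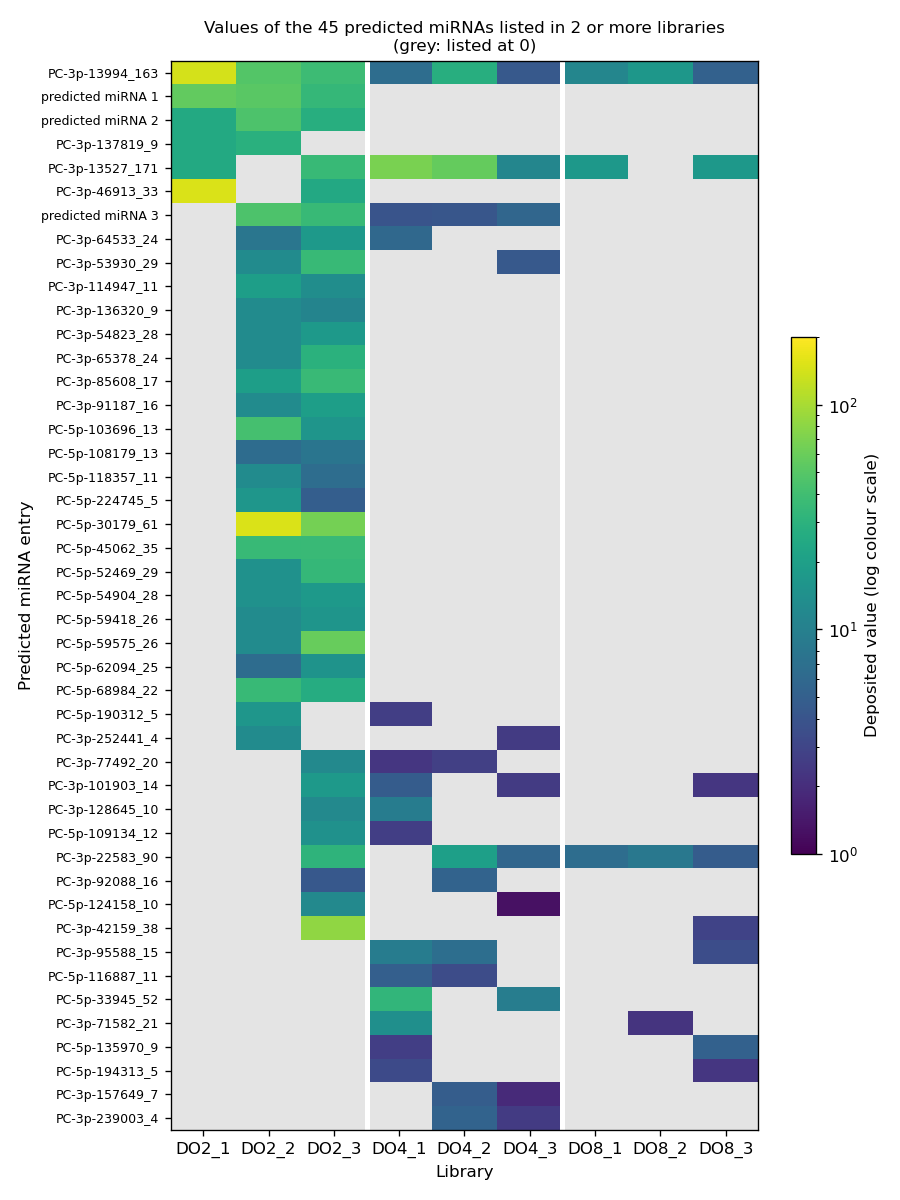
Deposited value of each of the 45 predicted miRNAs (rows) in each of the 9 libraries (columns) on a log colour scale, with grey where an entry is listed at 0 and white lines between the groups. The 18 entries listed in exactly DO2_2 and DO2_3 form the block in the upper middle, and PC-3p-13994_163 is the row with a value in all 9 libraries.

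Among the 22 entries of DO2 only, predicted miRNA 1 and predicted miRNA 2 were listed in DO2_1, DO2_2 and DO2_3, 18 in DO2_2 and DO2_3, 1 in DO2_1 and DO2_2 and 1 in DO2_1 and DO2_3. Counting entries that were also listed in other groups, DO2_2 and DO2_3 shared 24 entries, which was 28.2% of the predicted miRNAs of DO2_2 and 13.4% of those of DO2_3. Of these, 13 had the higher value in DO2_3 and 11 in DO2_2, so neither library was higher throughout. Without DO2_2 or without DO2_3, 3 entries would remain that were listed in 2 or more libraries and in DO2 only.

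Predicted miRNA 1, 19 nt long, was listed at 55.7, 51.6 and 34.1 in DO2_1, DO2_2 and DO2_3 and at 0 in the 6 other libraries. These values rest on 9, 16 and 28 reads, with more reads where the library held more miRNA reads. The mean in DO2 was 47.1 ± 11.5 (SD, n = 3), and the DO2 libraries did not overlap with the others. Predicted miRNA 2, 22 nt long, had 24.7, 45.2 and 28.0 in the same libraries, from 4, 14 and 23 reads, with a mean of 32.6 ± 11.0 (SD, n = 3), and was likewise at 0 in every DO4 and DO8 library. No fold is given for either, because the DO4 and DO8 groups were at 0. The paper's real-time PCR reported a fold of DO2 over DO8 for both, so a 0 here means not detected and not absent.

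The highest values in DO2, 148 in each case, belonged to entries that were missing from 1 of its libraries. PC-3p-13994_163, listed in all 3 DO2 libraries, followed with 142 in DO2_1. PC-5p-30179_61 reached 148 in DO2_2 (46 reads) and 65.7 in DO2_3 (54 reads) and was at 0 in DO2_1, whereas PC-5p-45062_35, the longer form that contains it, had 35.5 in DO2_2 (11 reads) and 36.5 in DO2_3 (30 reads). The shorter form was thus the higher one in both libraries. PC-3p-46913_33 had 148 in DO2_1 from 24 reads and 24.3 in DO2_3 from 20 reads and was at 0 in DO2_2, so that nearly equal numbers of reads stood behind values that differed widely.

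Other entries of DO2 only were named by their level or their seed. PC-5p-59575_26 had 12.9 in DO2_2 (4 reads) and 58.4 in DO2_3 (48 reads), and PC-5p-103696_13 had 42.0 in DO2_2 and 15.8 in DO2_3, each from 13 reads. The order of the libraries was opposite in these entries. PC-5p-68984_22 had 35.5 in DO2_2 (11 reads) and 26.8 in DO2_3 (22 reads). PC-5p-194313_5, which has its seed, was listed in other libraries, with 3.31 in DO4_1 (5 reads) and 2.32 in DO8_3 (4 reads), so the 2 entries of this seed were not listed together in any library.

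Among the 10 entries of DO2 and DO4, predicted miRNA 3 was the one listed in all 3 DO4 libraries. This 22 nt entry was at 0 in DO2_1, 45.2 in DO2_2 and 35.3 in DO2_3, from 0, 14 and 29 reads. In the DO4 libraries it had 3.97, 4.09 and 5.70, from 6, 6 and 9 reads, a mean of 4.59 ± 0.97 (SD, n = 3), and it was at 0 in all 3 DO8 libraries. The DO4 libraries lay close together and above DO8, and DO2_2 and DO2_3 lay above them. The DO4 values were below 12.4, the smallest value listed in DO2_1, so the 0 of that library does not place it below DO4.

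PC-3p-53930_29 had 12.9, 35.3 and 4.43 in DO2_2, DO2_3 and DO4_3, from 4, 29 and 7 reads. PC-3p-64533_24 had 8.07, 17.6 and 5.95 in DO2_2, DO2_3 and DO4_1, from 2.5, 14.5 and 9 reads. PC-3p-77492_20 had 12.2, 2.31 and 2.73 in DO2_3, DO4_1 and DO4_2, from 10, 3.5 and 4 reads. In these 3 entries of the 3p arm, 23 to 24 nt long, every listed DO2 value was above the listed DO4 values, and a read was worth more in DO2.

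The remaining 6 entries of DO2 and DO4 were listed in 1 library of each group. PC-3p-128645_10 had 12.2 in DO2_3 and 9.26 in DO4_1, from 10 and 14 reads, and PC-5p-109134_12 had 14.6 and 2.65 in the same libraries, from 12 and 4 reads. PC-3p-252441_4 had 12.9 in DO2_2 and 2.53 in DO4_3, from 4 reads in each, and PC-5p-190312_5 had 16.1 in DO2_2 and 2.65 in DO4_1, from 5 and 4 reads. These 2 entries show the scale plainly, since nearly equal reads gave values several times higher in DO2_2. PC-5p-124158_10 had 12.2 in DO2_3 and 1.27 in DO4_3, from 10 and 2 reads. PC-3p-92088_16, of the pair that shares 19 bases, had 4.26 in DO2_3 and 5.45 in DO4_2, from 3.5 and 8 reads, and was the one of the 10 with its higher value in DO4.

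PC-3p-13994_163, 18 nt long, was the one predicted miRNA listed in all 9 libraries. Its values were 142, 48.4 and 37.7 in DO2_1, DO2_2 and DO2_3, 6.61, 28.0 and 4.43 in the DO4 libraries and 11.4, 16.7 and 5.23 in the DO8 libraries. The 3 DO2 libraries were above the 6 others, and DO4 and DO8 overlapped. The reads behind them, 23, 15 and 31 for DO2, 10, 41 and 7 for DO4, 19, 30 and 9 for DO8, overlapped between all groups. The DO2 mean was 76.1 ± 57.5, the DO4 mean 13.0 ± 13.0 and the DO8 mean 11.1 ± 5.73 (SD, n = 3 each). Its highest library, DO2_1, was also the library with the highest summed value of the entries that resemble rRNA or tRNA fragments (71951.6), and the part of such fragments in its values was not tested.

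PC-3p-22583_90, which shares its last 15 bases, was listed in 6 libraries. It was at 0 in DO2_1 and DO2_2 and at 31.6 in DO2_3, at 0, 19.8 and 5.70 in the DO4 libraries and at 6.58, 8.34 and 4.65 in the DO8 libraries. The reads behind these values were 26 in DO2_3, 29 and 9 in DO4_2 and DO4_3 and 11, 15 and 8 in DO8. It was listed in all 3 DO8 libraries and in 1 DO2 library, and its groups overlapped. PC-3p-13527_171, also 18 nt long, had the most reads of the 45 entries, with values of 24.7, 0 and 35.3 for the DO2 libraries, 68.8, 56.6 and 11.4 for DO4 and 16.7, 0 and 16.8 for DO8. Its reads were 4, 0 and 29 for DO2, 104, 83 and 18 for DO4, and 28, 0 and 29 for DO8. DO4_1 and DO4_2 were highest, but DO4_3 lay below both listed libraries of DO8, so the groups overlapped. PC-3p-101903_14 was the other entry of all 3 groups, with 17.0 in DO2_3, 4.63 in DO4_1, 2.53 in DO4_3 and 2.32 in DO8_3, from 14, 7, 4 and 4 reads.

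PC-3p-42159_38 was the single entry of DO2 and DO8. It had 82.8 in DO2_3 from 68 reads and 2.90 in DO8_3 from 5 reads and was at 0 in DO2_1 and DO2_2.

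The 8 entries that no DO2 library listed had low values. PC-5p-33945_52 had the highest, 32.4 in DO4_1 (49 reads) and 9.50 in DO4_3 (15 reads). PC-3p-157649_7 had 4.77 in DO4_2 and 1.90 in DO4_3, from 7 and 3 reads. PC-3p-239003_4 had 5.45 and 2.53 in the same libraries, from 8 and 4 reads, and PC-5p-116887_11 had 4.96 in DO4_1 and 3.41 in DO4_2, from 7.5 and 5 reads. These 4 were the entries of DO4 only, and no pair of DO4 libraries held them all. PC-5p-33945_52, PC-3p-239003_4 and PC-5p-116887_11 were named after their values had been seen.

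The 4 entries of DO4 and DO8 included PC-5p-194313_5, given above. PC-3p-95588_15 had 9.26, 6.82 and 3.49 in DO4_1, DO4_2 and DO8_3, from 14, 10 and 6 reads. PC-3p-71582_21 had 13.9 in DO4_1 and 2.22 in DO8_2, from 21 and 4 reads. PC-5p-135970_9 was the one with its higher value in DO8, 5.23 in DO8_3 against 2.65 in DO4_1, from 9 and 4 reads. All 4 were listed in DO4_1, the library with the most miRNA reads. The values of the entries that no DO2 library listed were mostly below 12.4, the smallest value listed in DO2_1, so a level like theirs was not detectable there. In DO2_2 and DO2_3 the smallest listed values were 6.45 and 3.04, and the highest value of each of these entries lay above that of DO2_3.

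The 3 pairs of oxygen levels were compared with limma on log2(value + 1), all 9 libraries in 1 fit, with the 90 entries that had a value above 0 throughout at least 1 group. Only 6 of the 45 entries passed this filter, namely the 3 numbered entries, PC-3p-13994_163, PC-3p-22583_90 and PC-3p-13527_171. Because predicted miRNA 1 and predicted miRNA 2 passed through DO2 alone and predicted miRNA 3 through DO4 alone, their differences from groups at 0 follow from the filter in part, and the number called among the 6 supports nothing. PC-3p-13527_171 passed through DO4 alone and PC-3p-22583_90 through DO8 alone, so the differences of those groups from the others are tied to the filter too. Differences are on the log2(value + 1) scale, and the Benjamini-Hochberg adjustment ran over all 90 entries.

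Comparison of severe hypoxia with the normoxic control (DO2 against DO8) called 3 of the 6 entries higher and none lower, beside 23.3% called higher, 7.78% called lower and 31.1% called in either direction among all 90 entries. In limma the difference was 5.56 (SE 0.48, adjusted p = 2.38e-05) for predicted miRNA 1 and 5.02 (SE 0.49, adjusted p = 3.49e-05) for predicted miRNA 2, both of which depend on the value added before the logarithm because DO8 was at 0. For PC-3p-13994_163 it was 2.55 (SE 0.81, limma adjusted p = 0.0365). The differences of predicted miRNA 3 (3.57, SE 1.24, adjusted p = 0.0528), PC-3p-22583_90 (-1.20, SE 1.44, adjusted p = 0.559) and PC-3p-13527_171 (0.52, SE 1.55, adjusted p = 0.787) did not pass in limma. Over all 90 entries the median difference was -0.03.

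Severe against mild hypoxia (DO2 against DO4) called the same 3 of the 6 entries higher and none lower, beside 24.4% called higher, 6.67% called lower and 31.1% in either direction over all 90 entries, whose median difference was -0.14. This comparison shares the DO2 libraries with the one above. The difference was 5.56 (SE 0.48, adjusted p = 2.50e-05) for predicted miRNA 1, 5.02 (SE 0.49, adjusted p = 3.49e-05) for predicted miRNA 2 and 2.61 (SE 0.81, adjusted p = 0.0334) for PC-3p-13994_163 in limma. For predicted miRNA 3 it was 1.10 (SE 1.24, limma adjusted p = 0.476), and PC-3p-13527_171 (-1.91, adjusted p = 0.345) and PC-3p-22583_90 (-0.70, adjusted p = 0.713) did not pass either. The mean value of PC-3p-22583_90 before the logarithm was 10.5 in DO2 and 8.49 in DO4, opposite in direction to its log2 difference.

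Mild hypoxia against the control (DO4 against DO8) called 0 of the 6 entries and 0 of all 90 (0%) in limma, and 1 of the 90, not among the 6, had an unadjusted p under 0.05. Among the 6 entries the largest differences were those of predicted miRNA 3 (2.47, SE 1.24) and PC-3p-13527_171 (2.43, SE 1.55), each with a limma adjusted p of 0.802. PC-3p-13994_163 differed by -0.06 (SE 0.81) and PC-3p-22583_90 by -0.51 (SE 1.44).

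**Figure D4:**
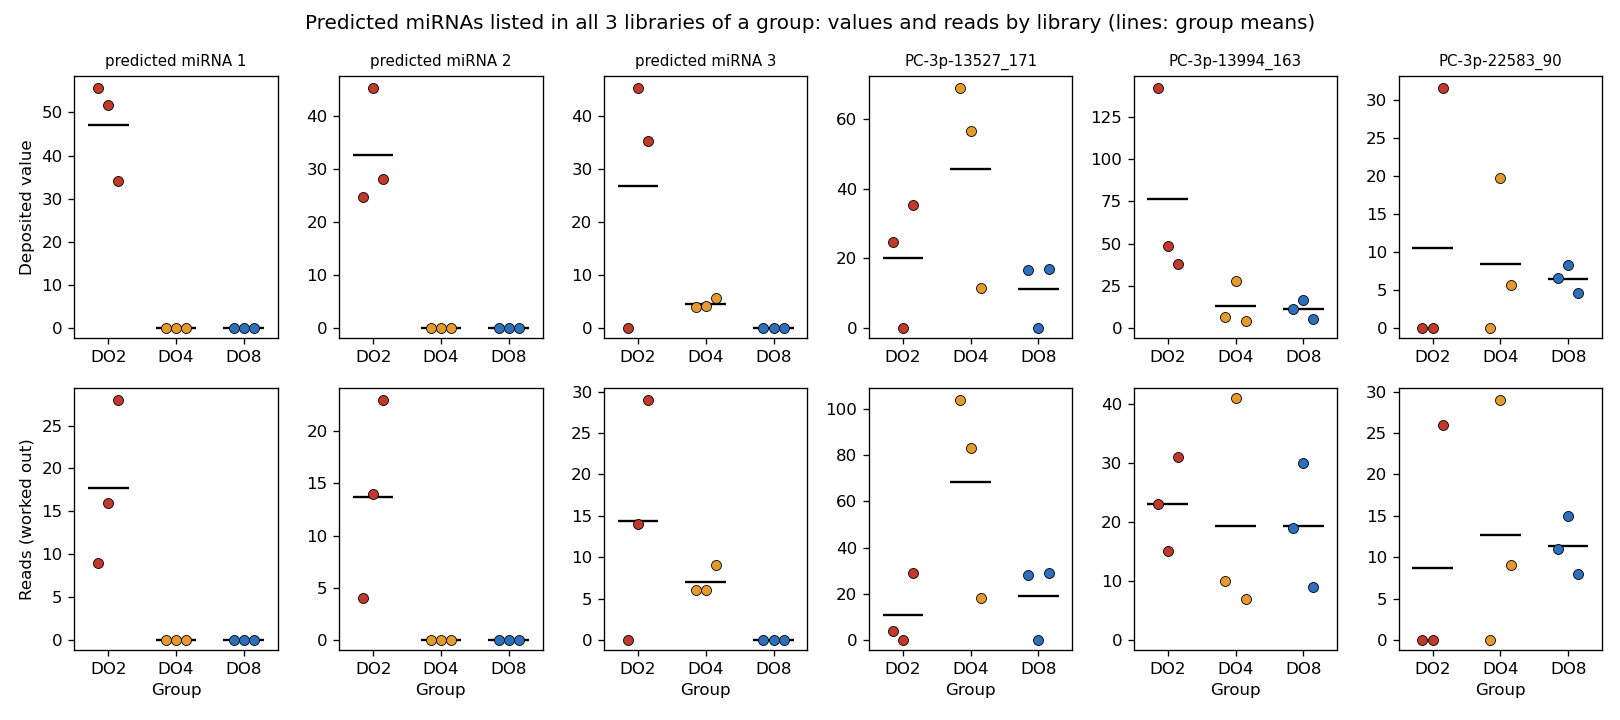
Deposited value (top row) and reads worked out from it (bottom row) of the 6 predicted miRNAs that were tested, 1 point per library and a line at each group mean. Predicted miRNA 1 and predicted miRNA 2 stand above 0 in the 3 DO2 libraries alone, and the values of PC-3p-13994_163 (37.7 to 142 in DO2 against at most 28.0 elsewhere) separate DO2 from the other groups while its reads (15 to 31 against 7 to 41) do not.

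The calls of predicted miRNA 1 and predicted miRNA 2 held in 18 of 18 alternatives in both comparisons (limma adjusted p at most 0.00136). Both were at 0 in DO4 and DO8 in every alternative, so this number follows from that in part and supports nothing. The call of PC-3p-13994_163 held in 10 of 18 in each comparison, with adjusted p in limma from 0.0164 to 0.754 against DO8 and from 0.00912 to 0.535 against DO4. Against DO8 it was lost without any 1 of DO2_1, DO2_2, DO4_1, DO8_1, DO8_2 or DO8_3 (limma adjusted p from 0.0539 to 0.127), and against DO4 without DO2_1, DO2_2, DO4_1, DO4_3 or DO8_1 (limma adjusted p from 0.0588 to 0.118). As reads without scaling, an alternative added after the data had been seen, PC-3p-13994_163 differed by 0.33 from DO8 (limma adjusted p = 0.754). Predicted miRNA 3 passed against DO8 in 5 of 16 alternatives, with limma adjusted p = 0.0132 without a filter, 0.0447 with 10 added before the logarithm, 0.0492 with equal totals, 0.0148 as unscaled reads and 2.24e-06 without DO2_1. Without DO2_1 it also passed for DO4 against DO8 (limma adjusted p = 0.00286) and for DO2 against DO4 (limma adjusted p = 9.68e-05). Leaving out DO2_1 removes the DO2 library in which it was at 0, so these values without it follow from that choice and support nothing.

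When all 475 entries were tested without a filter, 7 of the 45 entries were called higher in DO2 than in DO8 and none lower. Of all 475 entries, 31 (6.53%) were called in either direction, 24 of them higher. PC-3p-46913_33, PC-5p-30179_61 and PC-5p-45062_35 were added to the 3 entries above and predicted miRNA 3 (limma adjusted p = 0.0132). Against DO4 the same entries except predicted miRNA 3 were called, 6 in all, beside 32 of the 475 (6.74%) in either direction, 24 of them higher. The 3 added entries were each at 0 in 1 DO2 library, and all of them were at 0 in DO4 and DO8. Detection chose the 45 entries, and 22 of them were listed in DO2 only. The number called among the 45 therefore follows from the selection in part and supports nothing.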

How the data were processed

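Small RNA of 16 to 30 nt was sequenced by the authors on an Illumina instrument, who trimmed the reads, removed rRNA, tRNA, snRNA and snoRNA reads, aligned the rest to animal miRNAs of miRBase and predicted further miRNAs with MIREAP. The processing notes name CASAVA 1.5. The sample labels describe a poly(A) library, whereas the entries are 18 to 26 nt long.

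The files hold a signal deposited by the authors, the reads of each entry times 1 factor per library. The values of a library sum to more than RPM can reach, and between 65.5% and 81.1% are whole numbers of reads, so no count test was used. The value of 1 read was taken from the numbers in the names of predicted miRNAs of 1 library where at least 5 agreed (DO2_1 to DO2_3, DO4_1 and DO4_3) and otherwise from the largest common step of the predicted values. Of the predicted values, 100% were whole numbers of reads or lay midway between (within 0.02).

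A linear model with 1 mean per group was fitted to log2(value + 1) in limma 3.58.1 (R 4.3.3, moderated variances with a trend), and entries were called at an adjusted p of 0.05. p-values measure the spread between pools. Python 3.11.15, pandas 2.3.3, numpy 2.4.6 and matplotlib 3.10.9 served for the rest, and the fit was tested on simulated data. Replicates correlated with 0.91 to 0.99. Named entries are those tested, of 2 or more groups or 4 or more libraries, the 10 with the highest value, and those sharing a seed or 15 bases. Members and lists were chosen with earlier results of these data known. The alternatives were the filter, the value added (0.01 or 10), equal totals, 2 groups only, a replicate block, a common floor, unscaled reads and each library left out.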

Additional observations from a re-analysis of the deposited data

How the results depend on the processing

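The number of miRNA reads limits the detection results: 1 read was worth up to 6.18 in DO2 and at most 0.682 elsewhere, and a library list ends at its own smallest value. The number of entries was 45, 11 when 3 or more libraries were asked for, 22 above the common floor of 12.4 and 44 with contained sequences counted together. The entries of DO2 only were 22, between 3 (without DO2_2 or without DO2_3) and 23 with 1 library left out, 19 above the common floor, 20.99 expected at equal miRNA reads and 8.34 expected at equal miRNA reads with 4 reads. The last and the unscaled reads were chosen after seeing the data.

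The number of entries called by limma for DO2 against DO8 (28) was 18 to 47 with 1 library left out (18 without DO8_1 and 47 without DO2_1) and 68 with unscaled reads (13 higher and 55 lower). For DO2 against DO4 (28) it was 24 to 47 (47 without DO2_1) and 64 with unscaled reads (13 higher and 51 lower), where the median of all differences was -2.23 and -1.77 in the 2 comparisons. For DO4 against DO8 (0) it was 1 with 0.01 added before the logarithm and 0 to 2 with 1 library left out. Scaling to equal totals gave 34 (30 higher and 4 lower) and 37 (36 higher and 1 lower) for the DO2 comparisons. With unscaled reads PC-3p-13527_171 also passed for DO2 against DO4 (-3.38, limma adjusted p = 0.0332). It entered the test through DO4 alone, the group where it was highest, and the median of all entries was also below 0 there, so this pass supports nothing. The cause of these changes between settings was not tested.

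With the replicate number as a block, the number of calls was 26 for DO2 against DO8, 0 for DO4 against DO8 and 27 for DO2 against DO4. Libraries with the same number deviated together with correlations from -0.37 to 0.23, within the -0.47 to 0.43 of differently numbered libraries, so no pairing by number was seen. The deviations were taken from group means of few libraries, so this check cannot exclude a pairing.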
